A study of Mus musculus with 60 samples.

Results

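The immediate early genes described here are Fos, Fosb, Jun, Junb, Egr1, Egr2, Atf3, Ier2, Dusp1 and Zfp36, measured in mammary tissue of ovariectomized mice. They were chosen by name: every probe set annotated with exactly 1 gene symbol, that of a gene in this list of 10, was taken, which gave 17 of the 36899 probe sets on the 3 Affymetrix array types A, B and C. Of these, 15 were on type A, 2 on type C and none on type B. A filter on dim signals left 13 of the 17, with at least 1 for each of the 10 genes, among 23067 probe sets tested in all. The 4 left out were additional, dim probe sets of Fos (161716_at), Egr1 (161802_i_at), Atf3 (161645_r_at) and Jun (171444_r_at). Their group medians lay between 3.30 and 24.3 on the signal scale, and at least 1 animal was at the floor of the scale in every group except P for Fos.

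The series asked how estrogen and progesterone change transcription in the gland. All 20 mice had lost their ovaries and were injected intraperitoneally once a day for 4 days. Group V (4 mice) received 100 µl of sesame oil, the vehicle. Group E (4 mice) received 2 µg of 17-beta-estrogen, group P (4 mice) 1 mg of progesterone, and group E+P (5 mice) both hormones. Whole mammary glands were collected with their lymph nodes removed. Group E+P CFP (3 mice) received both hormones, and the tissue was a fat pad without epithelium, used to look at the response of the stroma; no such fat pad from mice without hormones was analysed here. The labels used here state neither strain nor age, and nothing in them dates the collection relative to the last injection.

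Immediate early genes are switched on within minutes of a stimulus such as a growth factor, a hormone or handling of the tissue, without new protein synthesis. Signals through the MAP kinases reach serum response factor and its partners at a DNA element called the CArG box, and CREB at cyclic AMP response elements, both lying close to the start of transcription. The Fos and Jun proteins pair to form the transcription factor AP-1, the Egr proteins bind GC-rich elements, and Dusp1 and Zfp36 shut the response down by removing phosphate from MAP kinases and by destabilising short-lived mRNAs. In the mammary gland, AP-1 is known for a role in the proliferation of epithelial cells.

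The stretches just before an annotated start are shown for the genes that carry the comparisons, Fos and Egr2, and for the 2 feedback genes. They are from RefSeq's promoter table on GRCm38.p6, which held 8 of the 10 genes in 12 windows; Egr1 and Ier2 were not matched. Each is written 5′ to 3′ on the strand of its gene, and capitals mark the motifs searched for on both strands. Fos is at chr12:85473750-85473889 on the plus strand, the 140 bases before the start. Egr2 is at chr10:67537729-67537868 on the plus strand, also 140 bases. It had several windows, and this one precedes an annotated start inside the gene, whose locus begins at 67534469. Dusp1 is at chr17:26508533-26508672 on the minus strand, from 200 to 61 bases before the start. Zfp36 is at chr7:28379229-28379348 on the minus strand, 120 bases.
Fos: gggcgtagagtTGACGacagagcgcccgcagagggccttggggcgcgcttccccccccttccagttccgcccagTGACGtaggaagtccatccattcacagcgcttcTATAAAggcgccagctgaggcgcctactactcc
Egr2: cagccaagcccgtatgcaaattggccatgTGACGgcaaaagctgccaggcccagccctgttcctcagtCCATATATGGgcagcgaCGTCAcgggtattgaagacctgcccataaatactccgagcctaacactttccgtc
Dusp1: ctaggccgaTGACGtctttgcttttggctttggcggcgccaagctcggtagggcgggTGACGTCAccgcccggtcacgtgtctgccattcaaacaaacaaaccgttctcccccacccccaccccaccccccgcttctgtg
Zfp36: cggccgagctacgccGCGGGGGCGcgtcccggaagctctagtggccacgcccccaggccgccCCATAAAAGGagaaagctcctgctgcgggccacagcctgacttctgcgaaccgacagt

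The shortened cyclic AMP element TGACG was found within 250 bases upstream in 6 of the 8 genes (Atf3, Dusp1, Egr2, Fos, Fosb and Junb), and in 17.8% of all 32851 upstream windows. The full palindrome TGACGTCA, which contains TGACG on both strands, was found in Dusp1 alone of the 8 and in 1.55% of all windows. The CArG box was found in Egr2 and Zfp36, and in 1.47% of all windows. The Egr-type element GCGNGGGCG was found in Fosb and Zfp36 (4.7% of all windows) and TATAAA in Fos (12.4%). The AP-1 site TGANTCA (6.75% of all windows) and the full palindromic estrogen response element (0.0639%) were in no window of the 8 genes. A gene was counted if any of its windows held the motif, with 12 windows for the 8 genes. The gene counts and the shares of windows are therefore not in like units. These are matches of letters only, and sequence farther than 250 bases upstream was not searched.

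All values below are MAS5 signals, which are array brightness on a linear scale with no unit, after every array was brought to a common trimmed mean. Differences are on the log2 scale with their standard errors, from limma fitted over all groups, and p-values were adjusted by Benjamini-Hochberg over the 23067 probe sets; an adjusted p of 0.05 was the threshold. Levels of different genes are not compared, because each probe set has its own brightness. The number of animals limits the precision. The 3 fat pads lacked gland epithelium by their markers. The keratin Krt8 had signals of 6.9 to 9.3 there against 945 to 1643 in the E+P glands, Krt19 of 1.9 to 3.7 against 966 to 1855, and the adhesion molecule Epcam of 3.1 to 6.5 against 184.5 to 308.5. Adipoq, the fat cell hormone, was bright in every gland and fat pad, from 6380 to 12709. The labels call the replicates biologic, and they were treated as separate animals. The fat pads were taken to come from mice other than those of the E+P glands.

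**Figure D1:**
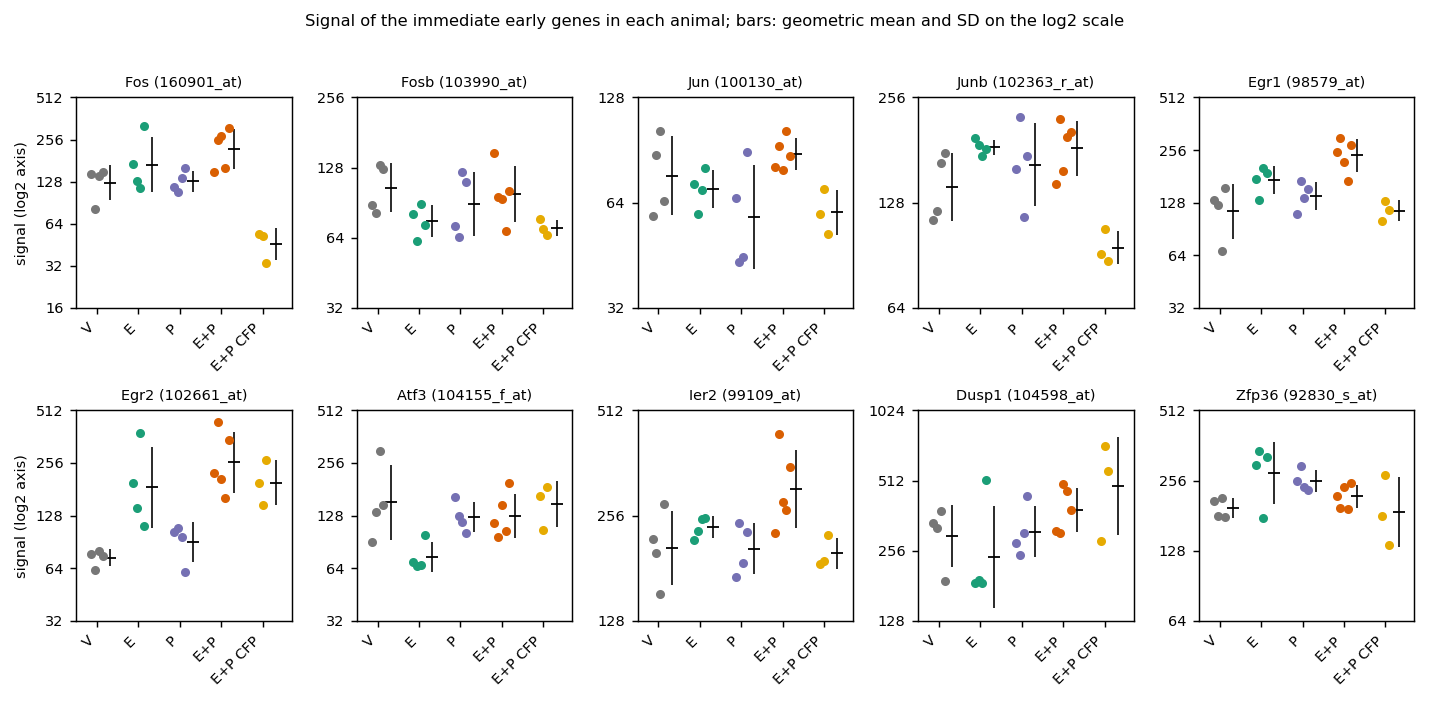
Signal (log2 axis) of the probe set used for each of the 10 genes, with 1 point per animal in the groups V, E, P, E+P and E+P CFP; the bar beside each group is the geometric mean with the SD on the log2 scale. Egr2 is above every V and P gland in all animals given estrogen, fat pads included, while Fos is lowest in the 3 fat pads, at 33.7 to 54.4.

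Egr2 and Egr1, zinc finger transcription factors of the early growth response family, were the members called higher in whole glands when both hormones were given. Of the 13 tested member probe sets, 2 rose in E+P against V and none fell, where 0.464% of all tested probe sets passed in either direction and 0.251% rose. Egr2 was 3.51-fold higher and Egr1 2.08-fold higher, each with no overlap between the groups, as for 2.46% of all probe sets on the high side. The members' median difference was 0.20, beside 0.01 over all tested probe sets, and 9 of the 13 differences were above 0.

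Egr2 had signals of 77.1, 62.7, 80.5 and 75.6 in the 4 V glands and of 224.1, 439.5, 207.7, 162.4 and 347.5 in the 5 E+P glands. Every E+P gland was above every V gland. The log2 difference was 1.81 ± 0.31 (SE; limma adjusted p = 0.00924). It passed the threshold whichever of the 20 animals was left out, with estimates from 1.62 to 1.98, and missed it when dim probe sets were kept in the test (adjusted p = 0.0503).

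In the E glands Egr2 had signals of 197, 141.7, 380.8 and 112.2, and in the P glands of 102.7, 108.5, 96.4 and 61.2. All 4 E glands were above all V and all P glands, whereas P and V overlapped. E against V gave 1.34 ± 0.33 (95% interval 0.65 to 2.02), which did not pass after adjustment (limma adjusted p = 0.101). P against V gave 0.29 ± 0.33 (adjusted p = 0.869). E+P against P gave 1.52 ± 0.31 and passed (adjusted p = 0.0390), and E+P against E gave 0.48 ± 0.31 (95% interval -0.17 to 1.13; adjusted p = 0.663).

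The call for Egr2 in E+P against P was near the threshold. It was lost, with adjusted p from 0.0504 to 0.112, in 9 of the 20 fits that left out 1 animal: E 1, each of the 4 P animals, and E+P 1, 2, 3 or 5. Median scaling of the arrays gave 1.49, with an adjusted p just above the threshold. The interaction of the 2 hormones on Egr2 was 0.19 ± 0.45 (95% interval -0.76 to 1.13; adjusted p = 0.922), so the difference between the combined effect and the sum of the single effects was not resolved.

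Egr1 had signals of 132.2, 124.4, 67.9 and 154.9 in V and of 250.4, 301.8, 219.8, 170.9 and 272.1 in E+P. All E+P glands were again above all V glands, but the gap between the dimmest E+P gland and the brightest V gland was small. The log2 difference was 1.06 ± 0.21 (limma adjusted p = 0.0305). It depended on single animals: the adjusted p was 0.0750 without V 2, 0.129 without V 3 (the dimmest V gland), 0.0606 without E+P 1, 0.112 without E+P 2, 0.0509 without E+P 3 and 0.0796 without E+P 5. The estimate in these fits lay between 0.80 and 1.10.

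With 1 hormone Egr1 was intermediate. The E glands had signals of 175.1, 133.2, 201.5 and 189.3 and the P glands of 110, 169.7, 135.3 and 152.9, and each group overlapped V. E against V gave 0.59 ± 0.23 (adjusted p = 0.296) and P against V 0.29 ± 0.23 (adjusted p = 0.784). The E+P glands were all above the P glands, with 0.77 ± 0.21 for E+P against P (adjusted p = 0.129). In the order of group means, V was followed by E+P CFP, P, E and E+P, and each neighbouring pair overlapped.

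Among the AP-1 genes none passed in a comparison between hormone groups of glands. Fos had signals of 145.3, 81.5, 139.8 and 150.5 in V, 170.5, 130, 114.8 and 317.5 in E, 117.3, 108.5, 136.9 and 160.1 in P, and 149.9, 254.4, 272.6, 160.3 and 307 in E+P. The highest single values were in E+P and E, and the ranges of all 4 gland groups overlapped. E+P against V gave 0.81 ± 0.28 (95% interval 0.22 to 1.39; limma adjusted p = 0.256).

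Junb, a partner of Fos in AP-1, had signals of 114.2, 120.9, 166.6 and 177.1 in V and 144.6, 222.8, 157.8, 197.4 and 204.1 in E+P (probe set 102363_r_at). The E glands lay close together at 173.6 to 195.7, and the P glands were spread from 116.3 to 225.6. The groups overlapped, and E+P against V gave 0.36 ± 0.18 (adjusted p = 0.491). The second Junb probe set (102362_i_at) was dimmer and more spread, from 24 to 118.6 within the E+P glands, and gave 0.06 ± 0.52.

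Jun, the founding member of its family, had V signals from 58.8 to 102.5, E signals from 59.5 to 80.5, P signals from 43.3 to 89.4 and E+P signals from 79.3 to 102.4. The E and E+P glands were less spread than V and P, and the difference of E+P from P was 0.60 ± 0.22 (adjusted p = 0.258). Fosb, a Fos relative, ranged from 82.1 to 131.2 in V, 61.8 to 89 in E, 64.8 to 122.3 in P and 68.3 to 147.8 in E+P. Its E+P against V difference was -0.09 ± 0.23 (adjusted p = 0.939).

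Ier2, a small nuclear protein induced with the AP-1 genes, had signals of 219.2, 199.8, 152.8 and 275.8 in V and of 228.7, 437.9, 280.6, 265.8 and 352.4 in E+P. The 2 highest animals of the series for this gene were E+P 2 and E+P 5, while E+P 1 and E+P 4 were below the highest V gland. The difference was 0.56 ± 0.18 (95% interval 0.18 to 0.93; limma adjusted p = 0.206). In E and P the signals were 217.9 to 252 and 170.4 to 244.1.

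Atf3, a stress-responsive factor of the ATF/CREB family, went the other way under estrogen alone, without passing. Probe set 104155_f_at had signals of 90.9, 135.1, 298.5 and 147.3 in V and of 69.4, 65.9, 66.4 and 98.9 in E, with an overlap at 1 animal on each side. E against V gave -1.04 ± 0.29 (limma adjusted p = 0.160). P ranged from 101.7 to 164.4 and E+P from 97 to 196.2, and E+P against E gave 0.79 ± 0.28 (adjusted p = 0.326). The second tested probe set, 104156_r_at, gave -1.14 ± 0.57 for E against V (adjusted p = 0.437).

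Dusp1, the MAP kinase phosphatase, had signals of 337.6, 319.9, 377.8 and 190.2 in V, 185.3, 191.9, 185.3 and 514.1 in E, 276.8, 245.2, 305.7 and 440.1 in P, and 311.1, 304.6, 492.9, 459.4 and 383.9 in E+P (probe set 104598_at). Of the E glands, 3 were among the 4 lowest of the series and the other was above every other gland. E against V gave -0.30 ± 0.32 and E+P against V 0.37 ± 0.31 (limma adjusted p = 0.765 and 0.748). The type C probe set of Dusp1 (168611_i_at) differed from it: it was 69.5 to 130.6 in V, all above the E glands (19.4 to 63.3) and the P glands (14 to 49.4). Its differences from V were -1.33 ± 0.60 in E, -1.60 ± 0.60 in P and -1.37 ± 0.57 in E+P, none of which passed (adjusted p = 0.374, 0.490 and 0.359), and 1 E, 2 P and 2 E+P glands were at the floor.

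Zfp36, which destabilises mRNAs with AU-rich elements, had signals of 210, 181, 215.4 and 178.3 in V, 297.1, 343, 176 and 323.5 in E, 254.9, 296.6, 239.5 and 232.2 in P, and 220.5, 194.9, 240.7, 193.7 and 250 in E+P. In all, 3 E glands and all P glands were above all V glands, while 2 E+P glands lay within the range of V. E against V gave 0.50 ± 0.20 (limma adjusted p = 0.324), P against V 0.38 ± 0.20 (adjusted p = 0.652), and E+P against V 0.16 ± 0.19 (adjusted p = 0.840). The interaction was -0.72 ± 0.28 (adjusted p = 0.317).

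Among the remaining hormone comparisons, Egr2 in E+P against P was the only member to pass. In E against V it was 0 of 13, where 0.182% of all tested probe sets passed; 5 members had an unadjusted p under 0.05, a level reached by 12.1% of all. Egr2 was non-overlapping on the high side and the type C Dusp1 probe set on the low side, where 7.52% of all tested probe sets did not overlap. In P against V no probe set in the series passed (0%), 1861 or 8.07% had an unadjusted p under 0.05 by limma, and 1 member was among them, the type C Dusp1 probe set. Zfp36 and that Dusp1 probe set did not overlap V, as did 3.86% of all. For E+P against E it was 0 of 13 (0.143% of all; 3 members and 9.93% of all at unadjusted p under 0.05), and in the interaction 0 of 13 (0.0737%; 3 members and 11.7%). For E+P against P it was 1 of 13, Egr2, against 0.36% of all, and Egr2 and Egr1 were above P without overlap, as were 2.22% of all.

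**Figure D2:**
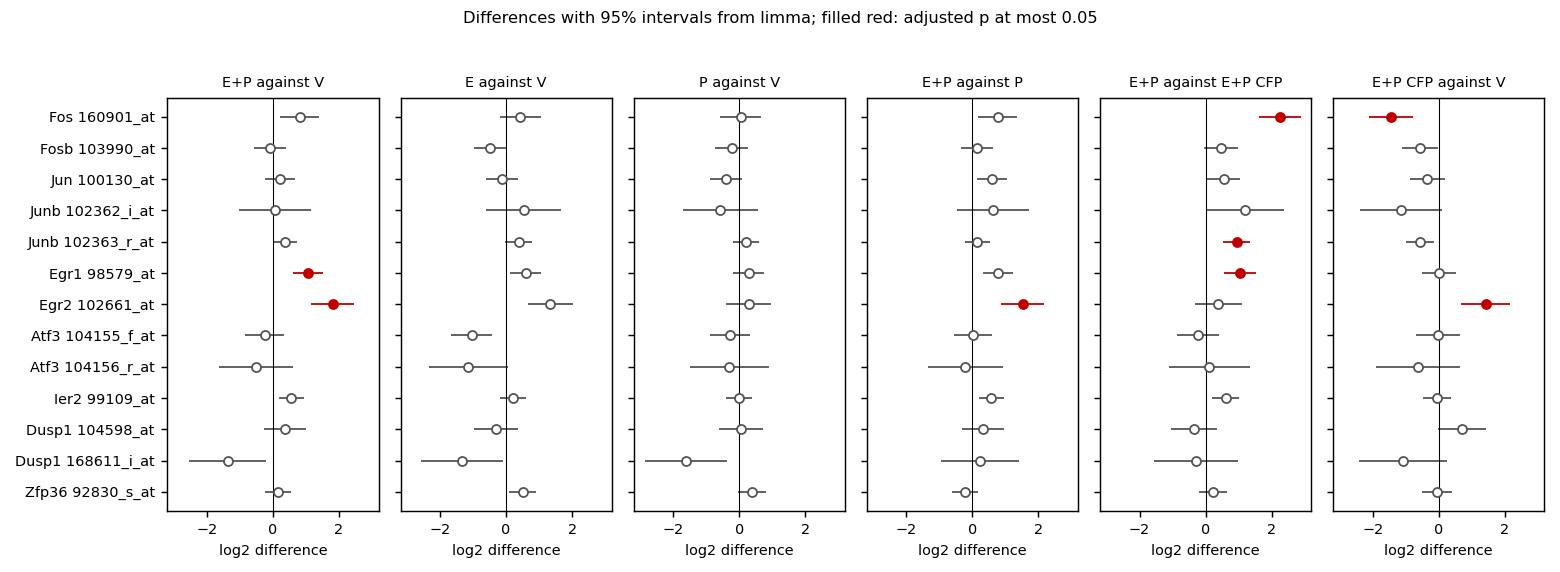
Log2 differences of the 13 tested member probe sets in 6 comparisons, each with its 95% interval from limma; red filled points passed an adjusted p of 0.05. Egr2 passed in E+P against V, E+P against P and E+P CFP against V, and Fos, Junb and Egr1 are higher in E+P glands than in E+P fat pads.

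In the comparison of glands with epithelium-free fat pads, both from mice given estrogen and progesterone, Fos, Junb and Egr1 passed the threshold. Differences between members were not tested. In E+P against E+P CFP, 3 of the 13 tested probe sets were called higher and none lower, where 7.9% of all tested probe sets passed in either direction and 5.24% were higher. Fos was 4.79-fold, Egr1 2.07-fold and Junb 1.92-fold higher in the glands. The members' median difference was 0.48, beside 0.02 over all. Median scaling of the arrays turned the split over all probe sets from 1209 higher and 614 lower to 830 and 1208, with Fos, Junb and Egr1 still called higher. In whole tissue, fewer cells of a type and less RNA per cell cannot be told apart.

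Fos had signals of 54.4, 52.6 and 33.7 in the fat pads, below all 17 glands of the series, against 149.9 to 307 in the E+P glands. The difference was 2.26 ± 0.31 (limma adjusted p = 4.33e-05), and it was called whichever of the 20 animals was left out. The fat pads were also below the V glands, with a difference of -1.45 ± 0.32 (adjusted p = 0.0113). That comparison changes both the hormone and the epithelium, which cannot be told apart in it, and it was lost without E+P CFP 3 (adjusted p = 0.0747).

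Junb (102363_r_at) had signals of 91.6, 107.9 and 87.4 in the fat pads, below every gland, and its difference from the E+P glands was 0.94 ± 0.20 (limma adjusted p = 0.00390). Its second probe set gave 1.20 ± 0.57 (adjusted p = 0.239), with an overlap. Egr1 had signals of 100.1, 131.4 and 116.3 in the fat pads, within the range of the V glands, and below every E+P gland, with a difference of 1.05 ± 0.23 (adjusted p = 0.00628). Against V it gave 0.01 ± 0.24 (95% interval -0.50 to 0.52).

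Egr2 did not follow Fos and Egr1 in the fat pads. Its signals of 197.8, 147.1 and 266.5 overlapped those of the E+P glands, with a difference of 0.39 ± 0.34 (95% interval -0.32 to 1.09; limma adjusted p = 0.592). They were above all V glands, at 1.43 ± 0.35 (2.69-fold; adjusted p = 0.0270). In order of the group means Egr2 ran V, P, E, E+P CFP and E+P, and of the neighbours only P and E did not overlap. The call against V was lost without V 1, V 2, V 4, E+P CFP 1 or E+P CFP 3, at adjusted p from 0.0524 to 0.132 and estimates from 1.21 to 1.45.

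Of the other members, Ier2 and Jun did not overlap between E+P glands and fat pads. Ier2 had fat pad signals of 186.5, 190.4 and 224.9 and a difference of 0.61 ± 0.20, close to the threshold (limma adjusted p = 0.0635), and it was called without V 3, V 4 or E+P 1 (adjusted p = 0.0462, 0.0470 and 0.0293). Jun had 59.5, 70 and 52.2 and a difference of 0.55 ± 0.24 (adjusted p = 0.190). Non-overlap on the high side was met by 5 of the 13 members and by 8.43% of all tested probe sets. Fosb (65.8 to 76.9), Atf3 (105.3 to 187.7), Zfp36 (135.1 to 271) and Dusp1 (281.9, 717.8 and 563.8) overlapped the E+P glands. The Dusp1 fat pads held the 2 highest values of the series for that probe set.

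Against V, the fat pads gave 1 member called higher and 1 lower of 13, where 3.09% of all tested probe sets passed, 0.685% higher and 2.41% lower. Non-overlap was met by Egr2 on the high side and by Fos, Fosb and Junb on the low side, against 5.59% and 7.38% of all. Fosb was -0.57 ± 0.26 (limma adjusted p = 0.324) and Junb -0.58 ± 0.21 (adjusted p = 0.169).

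Markers of other tissues moved with these comparisons. The mean deviation of 10 of the 12 listed luminal epithelial markers ran from -3.44 to -3.22 in the fat pads. It ran from 0.59 to 1.08 in E+P, 0.32 to 0.58 in V, 0.33 to 0.95 in E and 0.19 to 0.40 in P. The E+P glands thus did not overlap V or P, the groups against which Egr2 or Egr1 was called. More epithelial cells and more RNA per cell cannot be told apart there. The mean deviation of the 11 skeletal muscle markers was 2.09 to 2.80 in the fat pads, -1.01 to 0.29 in E+P and -1.08 to 0.66 in V. E 1 stood at 2.01. Acta1, the skeletal actin, was at 1841 to 2453 in the fat pads and 58.2 to 268.6 in E+P. With the muscle score, which was higher in every fat pad than in any gland, as a covariate, the differences between E+P glands and fat pads were 2.00 for Fos, 1.28 for Junb and 1.04 for Egr1, and none passed (limma adjusted p = 0.0607, 0.0531 and 0.311). Against V they were -1.23 for Fos and 0.81 for Egr2 (adjusted p = 0.401 and 0.700). Of the other tissues, the mean deviation of the 5 measured of 8 listed basal epithelial markers was low in the fat pads (-1.61 to -0.78, against -0.05 to 0.72 in E+P). The 7 measured adipocyte markers were at 0.27 to 0.49 in the fat pads, against -0.50 to 0.03 in E+P and -0.29 to 0.07 in V. The 7 endothelial markers were at 0.05 to 0.40 in the fat pads and 0.02 to 0.43 in V, against -0.43 to 0.02 in E+P and -0.36 to -0.14 in E. Over all animals the lists for fibroblasts ran from -0.48 to 0.63, for macrophages from -0.72 to 0.66 and for mast cells with neutrophils from -0.86 to 2.89, the last in E. Brown adipocyte markers were at -1.22 to -0.65 in E, -0.60 to -0.31 in the fat pads and -0.15 to 0.28 in P, all below V (0.57 to 0.95). In E+P they were at -0.58 to 0.99. The part of these lists in the members' differences was not tested. The ratio of 3′ to 5′ Gapdh signal, a sign of RNA integrity, was highest in V 4 (3.69) and E+P CFP 1 (4.39). In E it was 1.24 to 1.72, below every V gland (1.97 to 3.69), so it differed along with estrogen alone. It was 1.35 to 2.49 in P and 1.49 to 2.76 in E+P. The mean deviation of 12 lymphocyte markers was high in V 4 (1.23, with the other V glands down to -1.40) and at 0.39 to 1.98 in E. It was 0.10 to 0.73 in the fat pads and widely spread in P (-1.30 to 0.95) and E+P (-1.47 to 0.76). Without V 4, E 1 and E+P CFP 1 together, an alternative chosen after the data were seen, Fos was 2.38 and Junb 0.91 higher in E+P glands than in fat pads and Egr1 0.95 (adjusted p = 0.000525, 0.0287 and 0.0498). Egr2 was then 1.82 and Egr1 1.20 higher in E+P than in V (adjusted p = 0.0300 and 0.0244). That setting lost Egr2 in E+P against P (1.52, adjusted p = 0.0632), and both calls of the fat pads against V, Fos (-1.49, adjusted p = 0.0814) and Egr2 (1.44, adjusted p = 0.171).

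**Figure D3:**
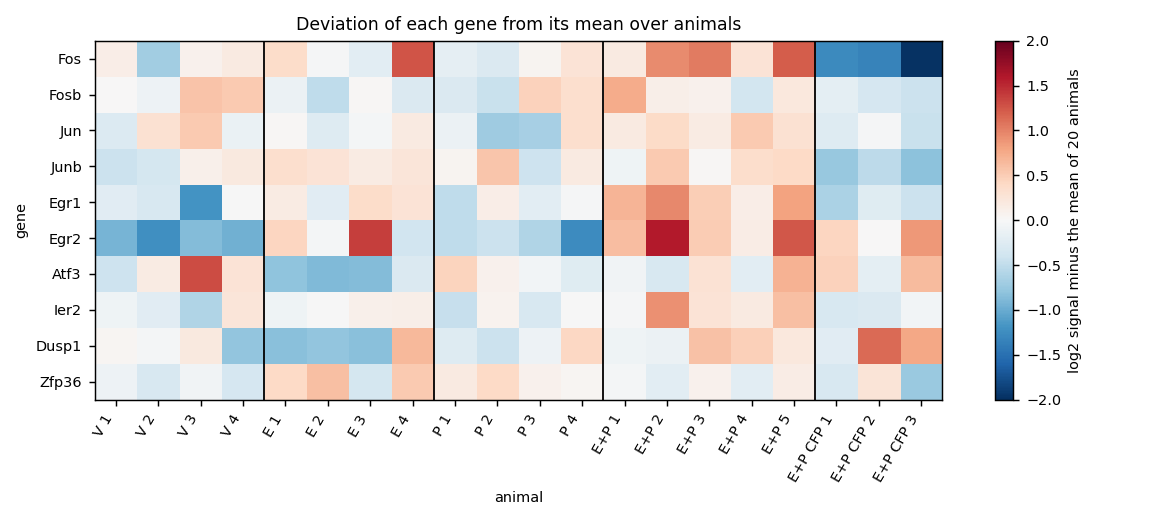
Deviation of the log2 signal of each gene (1 probe set per gene) from its mean over the 20 animals, with the animals in group order and lines between groups. Fos is lowest in the 3 fat pads, and Egr2 is low in all V and P glands.

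Taken as a mean deviation over the 10 genes, the 5 E+P glands stood at 0.21, 0.48, 0.35, 0.13 and 0.58 on the log2 scale. The V glands ran from -0.28 to 0, the E glands from -0.19 to 0.23, the P glands from -0.17 to 0 and the fat pads from -0.31 to -0.16. Only E 4 (0.23) fell within the range of the E+P glands. This animal also had the highest Fos and Dusp1 of the E group, at 317.5 and 514.1.

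The members' variation from animal to animal was compared in all 45 pairs of the 10 genes, over 20 animals. The only pairs past an adjusted p of 0.05 by Pearson's r were Egr1 with Ier2 and Fos with Junb. For Egr1 and Ier2, r was 0.860 (permutation p = 1e-05, the smallest 100000 resamples can give; adjusted p = 0.00045) and Spearman's rho 0.823 (permutation p = 3e-05; adjusted 0.00135). Without the 2 animals farthest from the median of Egr1, r was 0.779. With the group means taken out it was 0.748 (permutation p = 0.00217; adjusted 0.0977).

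For Fos and Junb, r was 0.739 (permutation p = 0.00022; adjusted 0.00495) and rho 0.588 (permutation p = 0.00789; adjusted 0.0592). Without the 2 animals farthest from the median of Fos, r was 0.582, and with the group means taken out it was 0.202 (permutation p = 0.360). The 3 fat pads were the lowest animals for both genes. Of the remaining pairs, Fos with Egr1 reached r = 0.604 and Egr1 with Egr2 r = 0.591 (adjusted p = 0.0637 for each), and Fos with Egr2 0.082. By rank, Fos with Egr1 (rho 0.708, permutation p = 0.00075, adjusted 0.0169), Fos with Ier2 (rho 0.620, permutation p = 0.0043, adjusted 0.0484) and Junb with Ier2 (rho 0.629, permutation p = 0.00363, adjusted 0.0484) also passed, and no pair passed with group means taken out.

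**Figure D4:**
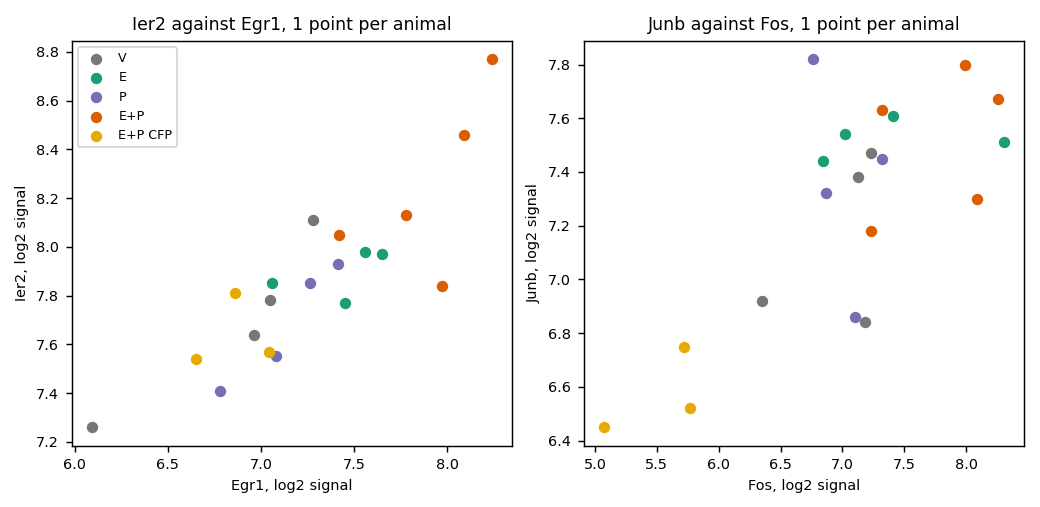
Log2 signal of Ier2 against Egr1 and of Junb against Fos, with 1 point per animal coloured by group. Ier2 rises with Egr1 across the gland groups, and the 3 fat pads form the low end of the plot of Junb against Fos.

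The genes outside the list whose pattern was most like the mean of the 10 members were sought among 12224 genes with 1 tested probe set each, over the 20 animals. The 8 with the highest Pearson r were Col16a1 (0.893), Wfdc18 (0.870), Hmgb3 (0.869), Stmn1 (0.847), Ano9 (0.844), Sprr1a (0.840), Id4 (0.824) and Plpp2 (0.821). With group means taken out they were Kcnk4 (0.827), Chpf (0.783), Erg28 (0.769), Pard6g (0.755), 4930405A21Rik (0.755), Wfdc12 (0.751), Krt8 (0.751) and Kdm6a (0.746). No gene was in both lists, and all points share the arrays of their animal. The values are a description, since the highest of so many are reported.

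Among 108 other genes of the immediate early pathway, 83 had a tested probe set. Each was read from 1 probe set, and by it none passed in any comparison among glands or in the interaction. Of all tested probe sets, 0% to 0.464% passed in these comparisons, so none of 83 is near that share. The list medians in E+P against V ran from -0.07 for the upstream kinases and serum response factors (11 tested) to 0.42 for the AP-1 and EGR targets (9 tested), beside 0.01 over all probe sets. The other transcription factors (22 tested) with the smallest adjusted p by limma were Id1, an inhibitor of differentiation, at -0.69 (adjusted p = 0.106), Myc at 1.11 (0.138) and Egr3 at 1.33 (0.154). Egr3, another Egr factor, had a median signal of 118.2 in V, 275.5 in E, 174.5 in P, 252.1 in E+P and 175.5 in the fat pads, with every group overlapping V.

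Of the other feedback regulators (25 tested), Zfp36l1, a relative of Zfp36, was at 0.50 (limma adjusted p = 0.148), Ier3 at 0.67 (0.233) and Rgs2 at 0.89 (0.243). Of the secreted products (6 tested of 16), Ccn2, the connective tissue growth factor, was at 1.14 (0.219), the chemokine Ccl2 at 0.94 (0.550) and tissue factor F3 at -0.37 (0.682). Upstream, serum response factor Srf was at 0.45 (0.359), and its partners Elk1 and Elk4 were at -0.61 (0.560) and -0.21 (0.669). Of the AP-1 and EGR targets, Pdgfa was at 0.42 (0.286), Timp1 at 0.72 (0.328) and Plau at 0.83 (0.380). The heat shock genes, which show tissue stress (10 tested), had a median of 0.22, with Hspa8 at 0.31 (0.277), Hsp90aa1 at 0.46 (0.505) and Hmox1 at 0.34 (0.547).

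Between E+P glands and fat pads, 9 of the 83 were called higher and 3 lower, beside 5.24% and 2.66% of all. Myc, a growth-promoting transcription factor, had signals of 84, 137.3, 83.9, 61.1 and 155.5 in the E+P glands and 15.8, 22.9 and 30.4 in the fat pads, with no overlap (2.14 ± 0.34, limma adjusted p = 0.000263). Ccn2 had 82.1, 97.7, 137.5, 82.2 and 337.4 against 20.8, 24.6 and 37.1 (2.23 ± 0.41, adjusted p = 0.00131). Plk2, a polo-like kinase, had 1108 to 1658 against 359.2 to 406.6 (1.90), and Ccnd1, cyclin D1, had 237.3 to 584.7 against 116.8 to 145.9 (1.59). Hspa1b (2.58) and Hspa1a (1.17), the inducible heat shock proteins, were also higher, but are near-identical copies whose probes may not tell them apart. Errfi1 (0.89) and Ier3 (0.93), feedback inhibitors, and the Egr corepressor Nab2 (0.61) completed the higher calls.

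The 3 called lower in E+P glands were Gadd45a, a growth arrest gene (-1.46), Id1 (-1.01) and the phosphatase Dusp4 (-0.73). Against V the fat pads had 0 called higher and 5 lower of 83, beside 0.685% and 2.41% of all: Klf10 (-0.75), Plk2 (-1.70), Ccnd1 (-1.16), Hspa1a (-1.13) and Hspa1b (-2.68). Under quantile and median scaling every sign was kept. The calls of Nab2, Ier3 and Dusp4 between E+P glands and fat pads were lost under quantile scaling, and those of Nab2, Errfi1 and Ier3 there and of Klf10 against V under median scaling.

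**Figure D5:**
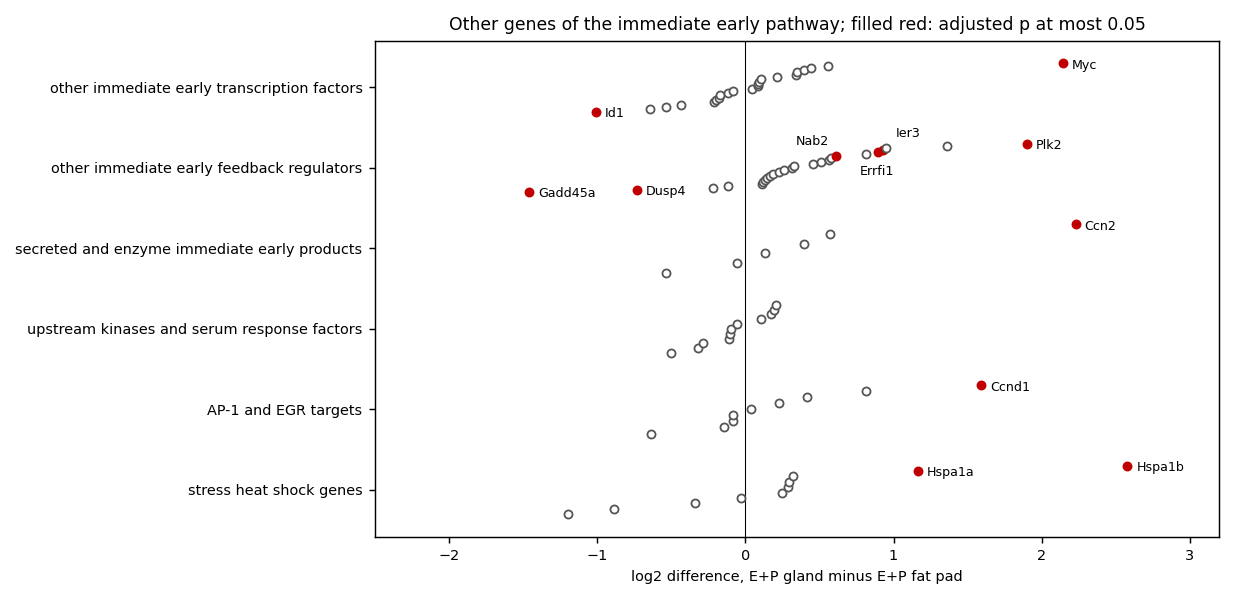
Log2 difference between E+P glands and E+P fat pads for 83 other genes of the immediate early pathway in 6 lists, with 1 point per gene; red filled points passed an adjusted p of 0.05 by limma. Hspa1b (2.58), Ccn2 (2.23) and Myc (2.14) lie farthest to the right, and Gadd45a (-1.46) farthest to the left among the named genes.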

How the data were processed

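Biotin-labelled cRNA made from 2 µg of total RNA per sample was read on 60 arrays of 3 types, per the labels' protocols. The deposited values are linear signal intensities; the submitters' processing notes name MAS5, without a version or settings. Arrays already had almost equal trimmed means (150.0 to 150.1). The description of the vehicle samples names progesterone while their titles and treatment give sesame oil; the titles were followed. Arrays of 1 group and replicate number were joined as 1 animal; their Gapdh 3′ to 5′ ratios correlated at 0.969 to 0.989 between array types.

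Each array was scaled to a common 2% trimmed mean, floored at the 25th percentile of its type (13.6, 28.6 and 19.8) and turned to log2. Probe sets above the 50th percentile (61.6, 85.7 and 61.8) in at least 3 animals were tested, 7222, 7719 and 8126 on A, B and C. A model of 5 group means (limma 3.58.1, R 4.3.3, trended eBayes) gave 8 comparisons. The fit was tested on simulated data. A suffix such as _i_at, _r_at, _f_at or _s_at marks probe sets designed under relaxed rules, which may also bind related transcripts. Where a gene had several probe sets, the one used in scores, in relations and for the other pathway genes came from type A first, then without a suffix, then the brightest. Every member was named; of the other pathway genes, all called in any comparison and up to 3 per list with the smallest adjusted p in E+P against V. A tissue score is the mean log2 deviation of a marker list from the mean over animals; scores were computed for luminal and basal epithelium, adipocytes, brown adipocytes, fibroblasts, endothelium, macrophages, lymphocytes, skeletal muscle, and mast cells with neutrophils. Members and lists were chosen with earlier results of these data known. Gene symbols are those of the platform annotation, and promoter coordinates are those of GRCm38.p6.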

Additional observations from a re-analysis of the deposited data

Results flagged for a closer look

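In 5 of the 52 groups of 4 or 5 animals looked at (13 tested member probe sets in 4 gland groups), 1 animal stood apart from the rest. The measure was its gap to the nearest animal as a share of the group's whole range, both on the log2 scale. In these groups that share was above Dixon's critical value for that number of animals. Chance alone gives about 1 in 20 such groups if values are normal. The groups are not independent, since the probe sets share animals and Junb, Atf3 and Dusp1 have more than 1 tested probe set. The count of flagged groups is therefore a description only. Dusp1 (104598_at) in E 4 was highest at a signal of 514.1, with a gap of 0.966 of the range. Junb (102362_i_at) in E 2 was highest at 124.3, with a gap of 0.890. Fos (160901_at) in V 2 was lowest at 81.5, with a gap of 0.880. Atf3 was highest in E 4 at 98.9 on probe set 104155_f_at, with a gap of 0.873, and highest in E+P 5 at 130.7 on 104156_r_at, with a gap of 0.868. E 4 was thus the high animal for both Dusp1 and Atf3, and its Fos signal of 317.5 was also the highest of group E.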

How the results depend on the processing

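No member difference reversed among those called, and 20 settings that left out 1 animal and 17 others were run. Of the member differences under them, 3715 kept their side of the threshold and stayed within the spread, 42 lost a call, 7 gained one and 44 moved beyond the spread without a call. In E against V, array weights called 1 member, Egr2 (1.57, limma adjusted p = 0.0206), in place of 0. For E+P against V, 2 members became 0 with no filter on dim probe sets, and 1 with only the groups compared, with the replicate block or with the muscle score as a covariate; leaving out 1 animal gave 1 to 2. For E+P against P, 1 became 0 under median scaling, no filter, no trend, array weights, only the groups compared, the replicate block, and without V 4, E 1 and E+P CFP 1 together; leaving out 1 animal gave 0 to 1. For E+P against E+P CFP, 3 became 0 with the muscle score as a covariate, and 4 with a filter at the 75th percentile, the Gapdh ratio or the lymphocyte score (Ier2, adjusted p = 0.0456, 0.0434 and 0.0250). In E+P CFP against V, 2 became 1 with no filter or with the lymphocyte score, and 0 with the muscle score or without V 4, E 1 and E+P CFP 1 together; leaving out 1 animal gave 0 to 2. The cause was not tested, except that with no filter more probe sets are adjusted for. The 2 related pairs of members became 0 with group means taken out. Median scaling moved the median of all tested probe sets by -0.13 in E+P against E+P CFP, where it called 830 higher and 1208 lower in place of 1209 and 614; in E+P against V it gave 49 and 73 in place of 58 and 49, in E+P against P 33 and 16 in place of 64 and 19, and in E+P CFP against V 203 and 423 in place of 158 and 555. No pairing of animals by replicate number was seen. The deviations of same-numbered animals correlated at -0.101 to 0.098 over 36 pairs (median 0.014, against -0.004 for different numbers). Of the 20 animals, 5 correlated best with their own number. With the replicate block, Egr1 in E+P against V was 1.01 (adjusted p = 0.0999) and Egr2 in E+P against P 1.41 (adjusted p = 0.0730).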
